A study of Homo sapiens with 60 samples.

Results

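The genes described here are 44 genes of DNA replication and entry into S phase, measured by RNA sequencing in HepG2 cells, a line derived from a human hepatocellular carcinoma. They were chosen by symbol from a list that covers origin licensing, the replication fork, nucleotide supply, and the cyclin E and E2F genes, and the rule used no measured value. All 44 were found among 35775 gene IDs with a count in at least 1 library, and all 44 passed the filter on low counts that left 16982 genes for testing.

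A cell that commits to S phase first loads the ring-shaped MCM2 to MCM7 helicase onto replication origins with the help of the origin recognition complex, CDC6 and CDT1. Cyclin E with its kinase, together with the DBF4-dependent kinase, then converts the loaded rings into working helicases by recruiting CDC45 and the GINS complex, and polymerases, the PCNA clamp and a supply of deoxynucleotides carry synthesis forward. Transcription factors of the E2F family switch on many of these genes late in G1 phase, and the retinoblastoma protein family holds E2F in check until then. HepG2 cells divide continuously in culture.

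Cells were treated for 24 h with extracts made in 70% ethanol. The low, medium and high concentrations were 10, 50 and 250 µg/mL for Polygalae Radix and 11.2, 56 and 280 µg/mL for Aucklandiae Radix, the roots of a milkwort and of costus. They were 20, 100 and 500 µg/mL for the herbs Menthae Herba and Saposhnikoviae Radix and for the multi-herb decoctions Guibi-tang, Saengmaek-san, Okbyeongpung-san and Soyo-san. The series text gives the top concentration as 500 µg/mL or, for extracts that reach it earlier, the concentration of 20% inhibition (IC20), and the high doses of Polygalae Radix and Aucklandiae Radix are the ones under 500 µg/mL. The vehicle group received DMSO alone, at 0.1% in the sample labels and 2% in the series text. Groups held 3 libraries for each dose of Guibi-tang, Menthae Herba, Saengmaek-san and Saposhnikoviae Radix and for vehicle. They held 2 libraries for each dose of Polygalae Radix, Aucklandiae Radix and Soyo-san, and 1 for each dose of Okbyeongpung-san, so the last extract has no replicate check. The series text says that samples with little RNA were left out. The 60 libraries held 17518479 to 38905899 counts, and 8.02% to 19.14% of counts were mitochondrial.

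The first field of the sample code is called the set here. Each herb or decoction shares it with 1 other, whereas vehicle has its own. The labels do not say what this field stands for, and all titles, vehicle included, name the same batch, BatchD. High dose was therefore set against low dose of the same extract first, since both stand in the same set, and the comparisons with vehicle follow. In a comparison with vehicle, set and treatment cannot be told apart. Nothing in the labels tells separate cultures from repeat libraries, so adjusted p-values measure the spread between these libraries. Values below are CPM, counts relative to the library's total, scaled by TMM, fold changes are on the log2 scale, and p-values are from edgeR's quasi-likelihood test with Benjamini-Hochberg adjustment over all tested genes. A gene is said to have risen or fallen only where its adjusted p was under 0.05.

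By a chi-square of the counts per gene, vehicle replicate 1 differed from replicates 2 and 3 by 14.65 and 13.73, against 2.638 between those 2. Guibi-tang high replicate 2 differed from replicates 1 and 3 by 13.43 and 15.47, against 2.569 between those 2. Without that Guibi-tang library 23 in place of 24 of the 44 genes were called at high against low dose. Without vehicle replicate 1 the number called at low dose against vehicle was 24 to 29 over the 7 extracts, in place of 19 to 25. By the same chi-square, Polygalae Radix replicates 2 and 3 differed by 15.34 at high and by 15.58 at medium dose. These are the only libraries of those groups, so neither can be named as the distant one. Saengmaek-san low replicates 2 and 3 differed by 14.39. All 8 HepG2 markers, among them albumin and alpha-fetoprotein, had medians above 10 CPM, and their sum ranged over the libraries from 16180 to 53518 CPM. Of 6 blood-cell markers HBB and MS4A1 were at 0 in every library and LYZ alone exceeded 10 CPM. None of 5 stromal markers (DCN at 0) or 4 endothelial markers had a median above 10 CPM. At high against low dose the HepG2 markers fell too, 8 of 8 with Polygalae Radix (median log2 fold change −1.64), with Aucklandiae Radix (−0.44) and with Guibi-tang (−0.65), and 7 of 8 with Menthae Herba (−0.47). Their summed level was 16180 to 19933 CPM at high and 46915 to 48266 CPM at low dose of Polygalae Radix, and 21211 to 21701 CPM at high and 47383 to 47466 CPM at low dose of Aucklandiae Radix. It was 22738 to 26210 CPM at high and 49284 to 51309 CPM at low dose of Menthae Herba, 34807 to 36133 CPM at high and 48505 to 50373 CPM at low dose of Guibi-tang, and 48128 to 52185 CPM in vehicle. Their part in the results below was not tested.

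Many replication promoters carry E2F sites, and the windows below show 4 whose genes behaved differently. The sequences are from RefSeq (GRCh38.p14), run 5′ to 3′ on the gene's strand from 250 bases before the start to 50 after it, and capitals mark an E2F-type motif on either strand. MCM2 fell with 3 extracts, UHRF1 fell most with Aucklandiae Radix, GINS3 rose with Polygalae Radix, and CCNE1 rose with 3 extracts and has no such motif in its window. The windows lie at chr3:127598161-127598460 (plus strand), chr19:4909251-4909550 (plus strand), chr16:58392221-58392520 (plus strand) and chr19:29811741-29812040 (plus strand).
MCM2: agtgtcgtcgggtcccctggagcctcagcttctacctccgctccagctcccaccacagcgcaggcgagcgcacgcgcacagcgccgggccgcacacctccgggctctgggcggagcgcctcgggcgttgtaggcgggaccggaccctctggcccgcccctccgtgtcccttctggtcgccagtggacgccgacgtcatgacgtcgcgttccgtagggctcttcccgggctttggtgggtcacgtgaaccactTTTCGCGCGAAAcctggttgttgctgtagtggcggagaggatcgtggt
UHRF1: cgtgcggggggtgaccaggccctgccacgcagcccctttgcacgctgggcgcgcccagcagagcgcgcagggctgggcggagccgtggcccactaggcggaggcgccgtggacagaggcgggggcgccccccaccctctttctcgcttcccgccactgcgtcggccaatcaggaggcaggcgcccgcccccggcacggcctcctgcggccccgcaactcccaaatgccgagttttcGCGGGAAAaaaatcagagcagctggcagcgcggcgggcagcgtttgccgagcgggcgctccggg
GINS3: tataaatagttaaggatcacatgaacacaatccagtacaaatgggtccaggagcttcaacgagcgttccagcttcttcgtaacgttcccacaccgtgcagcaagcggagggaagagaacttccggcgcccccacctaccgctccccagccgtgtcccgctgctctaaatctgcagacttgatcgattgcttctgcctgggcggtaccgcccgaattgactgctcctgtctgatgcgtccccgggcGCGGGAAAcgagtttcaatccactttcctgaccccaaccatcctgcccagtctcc
CCNE1: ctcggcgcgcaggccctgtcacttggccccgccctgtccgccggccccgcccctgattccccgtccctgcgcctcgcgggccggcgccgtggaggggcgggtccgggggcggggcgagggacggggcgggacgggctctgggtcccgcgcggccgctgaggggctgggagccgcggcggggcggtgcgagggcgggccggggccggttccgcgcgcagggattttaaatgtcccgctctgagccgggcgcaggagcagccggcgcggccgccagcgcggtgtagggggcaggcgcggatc

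The motifs searched were TTTCGCGC, TTTGGCGC, TTTCCCGC and TTTGCCGC on both strands, and in the MCM2 window matches on the 2 strands overlap. RefSeq windows were found for 39 of the 44 genes, and 23 of those (59%) held a motif in at least 1 window. Counted by window, 24 of 50 (48%) held a motif, against 3.31% of all 35116 promoter windows of this length. CCAAT, searched the same way, was in 29 of the 50 windows (58%) and in 34.6% of all windows. Of the genes with a window, 6 of 11 that rose with Polygalae Radix and 14 of 22 that fell with it held one. With Aucklandiae Radix 23 of 37 that fell held one. With Guibi-tang the counts were 12 of 19 that fell and 11 of 19 that passed no test. These matches describe letters in a window and not bound sites.

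At high against low dose the replication genes fell together with Aucklandiae Radix, fell more often than they rose with Polygalae Radix, and fell by smaller amounts with Guibi-tang. With Aucklandiae Radix 41 of 44 fell and 2 rose, where 35.5% of all tested genes fell and 33.9% rose. With Polygalae Radix 25 fell and 13 rose, beside 33.0% and 31.1% of all genes, so the share that rose was close to that of all genes. With Guibi-tang 23 fell and 1 rose, beside 17.5% and 16.8%. The median log2 fold change of the 44 genes was −1.09 with Aucklandiae Radix, −0.21 with Polygalae Radix and −0.14 with Guibi-tang, while the medians over all genes lay between −0.02 and 0. Of the fallers 28 with Aucklandiae Radix and 8 with Polygalae Radix were down by more than 2-fold. The share of all genes down by that much is not given here, so these counts have no background beside them. The summed level of the 44 genes was 3195 ± 4.38 CPM at high and 4186 ± 6.92 CPM at low dose of Polygalae Radix (SD, n = 2 each). It was 2032 ± 34.1 CPM at high and 4203 ± 35.8 CPM at low dose of Aucklandiae Radix (SD, n = 2 each), and 3650 ± 56.2 CPM and 4255 ± 18.6 CPM for Guibi-tang (SD, n = 3 each). In bulk RNA, fewer cells in S phase and less of these transcripts per cell cannot be told apart. With Polygalae Radix, removal of a transcript GC and length trend changed the split to 19 that fell and 16 that rose. The share of all genes called in that setting is not given, here or for the counts below.

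**Figure D1:**
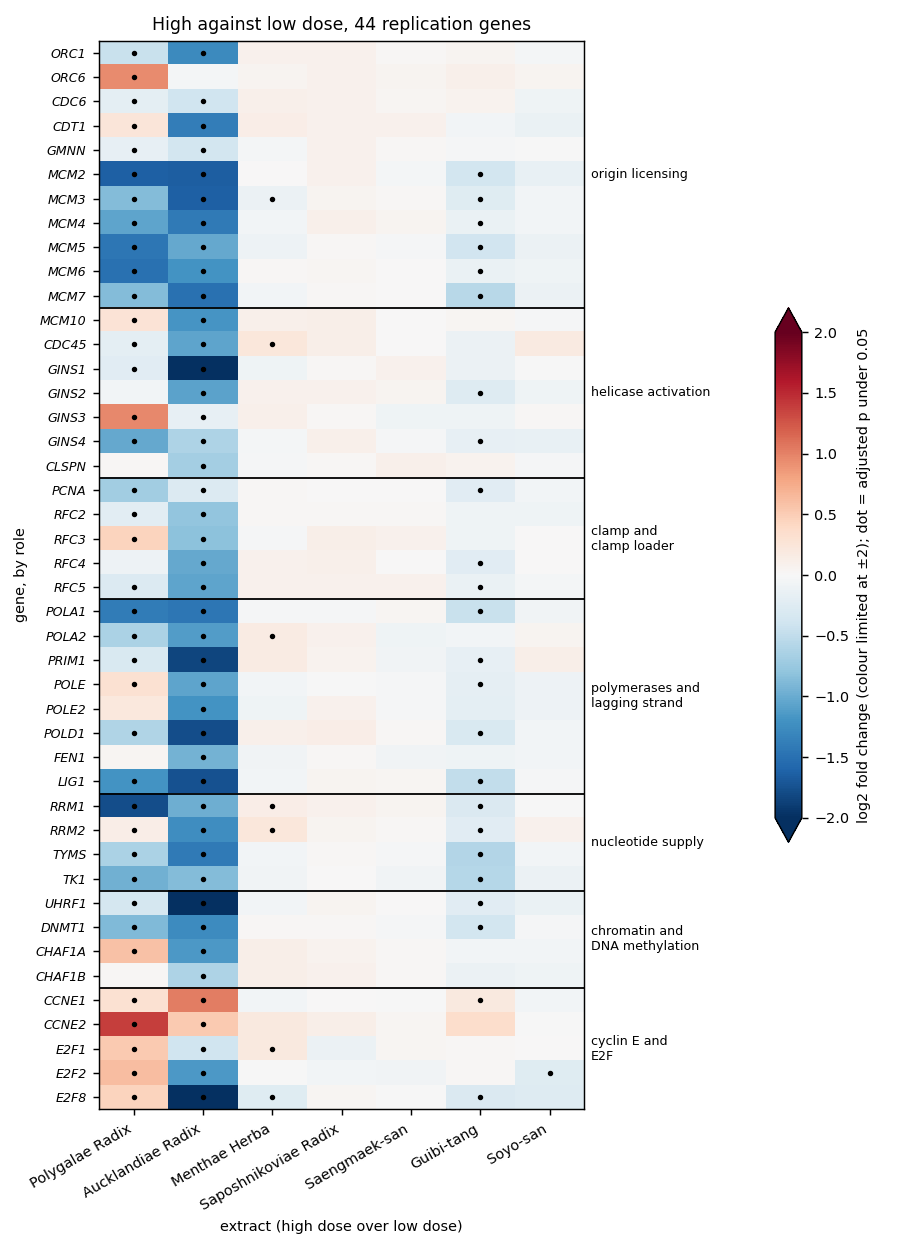
Log2 fold change of high against low dose for the 44 genes (rows, grouped by role) in 7 extracts (columns), with colour limited at ±2 and dots where the adjusted p was under 0.05. The Aucklandiae Radix column is blue in 41 rows, the Polygalae Radix column mixes 25 falls with 13 rises, and Saposhnikoviae Radix and Saengmaek-san have no dot.

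The other 4 replicated extracts moved few of these genes. Menthae Herba raised 5 and lowered 2 (10.8% of all genes rose and 12.5% fell), with none past 2-fold. Removal of the GC and length trend gave 11 that rose and 2 that fell there. Soyo-san lowered 1 and raised none (1.83% and 2.13% of all genes). Saposhnikoviae Radix changed none by edgeR (0.389% of all genes rose and 0.442% fell), with 3 of 44 at an unadjusted p under 0.05 and 1 called by DESeq2. Saengmaek-san changed none by edgeR (0.206% and 0.230%), with 1 of 44 at an unadjusted p under 0.05 and 0 by DESeq2. The 95% interval of a gene's log2 fold change had a median width of ± 0.10 in these last 2 extracts, before any adjustment for the number of genes. Okbyeongpung-san, with 1 library per dose and no test, had 0 of 44 genes past 2-fold at high against low dose (3.39% of all genes), from −0.24 for CCNE2 to 0.22 for CDT1.

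Of the 11 origin licensing genes 9 fell with Polygalae Radix, 10 with Aucklandiae Radix and 6 with Guibi-tang. All 6 of MCM2 to MCM7, the subunits of the replicative helicase, fell with Polygalae Radix (median −1.25), Aucklandiae Radix (−1.46) and Guibi-tang (−0.31). With Guibi-tang the MCM6 call (−0.14) was lost without the filter on low counts and in a fit of the 2 groups alone. It was also lost without high replicate 2 or 3 or low replicate 2 or 3. The MCM4 call with Guibi-tang (−0.13) was lost in the fit of the 2 groups alone. MCM2 (ENSG00000073111, chr3:127598223-127622436, GENCODE 29 on GRCh38) had 67.7 and 59.8 CPM at high and 197 and 199 CPM at low dose of Polygalae Radix. It had 67.0 and 61.9 CPM at high and 197 and 205 CPM at low dose of Aucklandiae Radix. With Guibi-tang it had 157, 157 and 153 CPM at high and 201, 198 and 202 CPM at low dose, and vehicle libraries had 215, 242 and 241 CPM. Every high-dose library of these 3 extracts lay below every low-dose library, and MCM2 stood at 59.8 to 67.7 CPM at the high doses of both roots. The log2 fold change was −1.64 ± 0.06 with Polygalae Radix (SE, adjusted p = 1.2e-27), −1.65 ± 0.06 with Aucklandiae Radix (adjusted p = 1.2e-27) and −0.37 ± 0.05 with Guibi-tang (adjusted p = 9.5e-09). MCM6 fell by 1.49 with Polygalae Radix, to 22.2 and 24.8 CPM at high dose, against 62.9 and 67.9 CPM at low dose. MCM7 fell by 0.55 with Guibi-tang, to 183, 171 and 182 CPM, against 254, 260 and 266 CPM at low dose, with no overlap between the doses.

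The 6 subunits did not fall by equal amounts. On the scale of CPM per kilobase of transcript, MCM3 was the highest and MCM6 the lowest subunit in the high-dose, low-dose and vehicle groups of these extracts. The MCM3 level was 9.33 ± 0.711 times that of MCM6 at high and 6.05 ± 0.285 times at low dose of Polygalae Radix (SD, n = 2 each). It was 4.47 ± 0.14 times at high and 6.09 ± 0.146 times at low dose of Aucklandiae Radix (SD, n = 2 each). In vehicle it was 7.14 ± 0.611 times (SD, n = 3). The ratio was higher at the Polygalae Radix high dose and lower at the Aucklandiae Radix high dose than at their low doses, and the difference was not tested.

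The licensing factors around the helicase divided between the extracts. ORC1, the largest subunit of the origin recognition complex, fell by 0.45 with Polygalae Radix and by 1.28 with Aucklandiae Radix. ORC6, its smallest subunit, went the other way with Polygalae Radix. It had 111 and 116 CPM at high and 61.4 and 56.5 CPM at low dose, a log2 fold change of 0.94 ± 0.06 (SE, adjusted p = 2.1e-19), and −0.04 ± 0.06 with Aucklandiae Radix (adjusted p = 0.59). CDT1, which brings the helicase to the origin, had 107 and 88.4 CPM at high and 80.7 and 84.0 CPM at low dose of Polygalae Radix, a rise of 0.24 (adjusted p = 0.0045). Without Polygalae Radix high replicate 2 it was 0.09 and not called, and a fit of the 2 groups alone did not call it. With Aucklandiae Radix CDT1 had 27.6 and 34.3 CPM at high and 76.3 and 84.4 CPM at low dose, and it fell by 1.38 (adjusted p = 6.6e-20). CDC6, the other loading factor, had 105 and 104 CPM at high and 122 and 117 CPM at low dose of Polygalae Radix, and 97.0 and 87.6 CPM at high and 124 and 119 CPM at low dose of Aucklandiae Radix. Its falls, 0.20 with Polygalae Radix and 0.40 with Aucklandiae Radix, were among the smallest in this role, and both pairs of doses were without overlap. A fit of the 2 groups alone did not call the CDC6 fall with Polygalae Radix. GMNN, the inhibitor that blocks CDT1 once S phase has begun, fell by 0.16 with Polygalae Radix (adjusted p = 0.035), where the high-dose libraries had 69.8 and 86.4 CPM and the low-dose libraries 87.3 and 86.6 CPM. Only high replicate 2 stood clearly below low dose, and without it GMNN was −0.02 and not called. With the GC and length trend removed it was −0.03 and not called. With Aucklandiae Radix GMNN fell by 0.36, to 64.7 and 63.6 CPM, against 81.1 and 82.4 CPM at low dose.

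**Figure D2:**
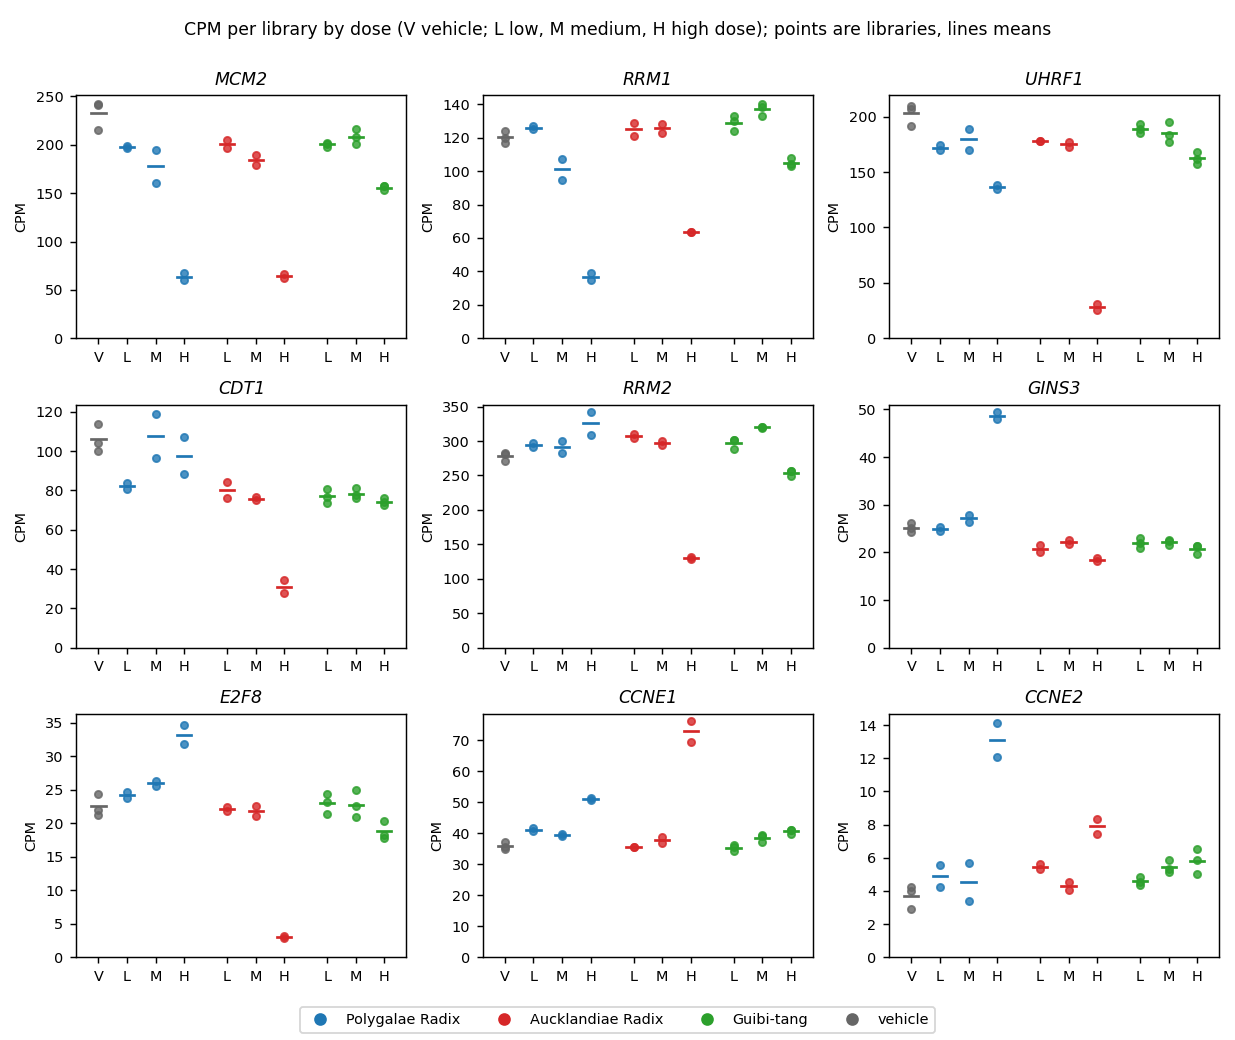
CPM in each library (points, with group means as lines) for 9 genes at vehicle and at low, medium and high dose of Polygalae Radix, Aucklandiae Radix and Guibi-tang, on linear axes from 0. MCM2 drops at the high doses of both roots, whereas GINS3 (49.4 and 47.9 CPM) and E2F8 (31.8 and 34.7 CPM) stand highest at the Polygalae Radix high dose.

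Genes that activate the helicase fell in all 7 cases with Aucklandiae Radix and in 3 of 7 with Polygalae Radix (GINS1, GINS4 and CDC45). With the GC and length trend removed the Polygalae Radix values were −0.08 for GINS1 and −0.01 for CDC45, and neither was called. GINS1, a subunit of the 4-part GINS complex, had 16.4 and 19.7 CPM at high and 73.8 and 68.6 CPM at low dose of Aucklandiae Radix, a fall of 1.99 (adjusted p = 5.5e-26). It had 53.0 and 61.0 CPM at high and 71.1 and 61.5 CPM at low dose of Polygalae Radix, a fall of 0.22 with doses that nearly touched. Without high replicate 2 or low replicate 2 it was −0.12 and not called. GINS4 showed the reverse order, falling by 1.03 with Polygalae Radix and by 0.61 with Aucklandiae Radix. GINS3 had 49.4 and 47.9 CPM at high and 25.3 and 24.5 CPM at low dose of Polygalae Radix, a rise of 0.96 ± 0.06 (SE, adjusted p = 3.9e-19), and 18.1 and 18.9 CPM at high and 21.5 and 20.1 CPM at low dose of Aucklandiae Radix, a fall of 0.17 (adjusted p = 0.019). The subunits of 1 complex thus moved in opposite directions with Polygalae Radix. The GINS3 call with Aucklandiae Radix was lost with DESeq2 (−0.14), a fit of the 2 groups alone (−0.18), without the filter on low counts (−0.21), with RLE scaling (−0.13), with genes kept from a mean of 1 CPM (−0.12), and without high replicate 2 (−0.14) or low replicate 2 (−0.13). CDC45, the third part of the active helicase, had 20.0 and 20.4 CPM at high and 22.4 and 23.5 CPM at low dose of Polygalae Radix, and 11.0 and 11.4 CPM at high and 22.6 and 23.8 CPM at low dose of Aucklandiae Radix. It fell by 0.20 with Polygalae Radix (adjusted p = 0.01) and by 1.05 with Aucklandiae Radix (adjusted p = 5.6e-17). The CDC45 call with Polygalae Radix was lost without the filter on low counts and in a fit of the 2 groups alone. The value was −0.19 without high replicate 2 and −0.16 without low replicate 3. MCM10, which helps CDC45 bind, rose by 0.28 with Polygalae Radix and fell by 1.18 with Aucklandiae Radix. CLSPN, the claspin checkpoint mediator that travels with the fork, had a log2 fold change of 0.02 with Polygalae Radix (adjusted p = 0.76) and fell by 0.68 with Aucklandiae Radix.

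At the fork, PCNA was the member with the shallowest fall among the called genes of the clamp and clamp loader with Aucklandiae Radix. PCNA, the sliding clamp, had 202 and 230 CPM at high and 355 and 338 CPM at low dose of Polygalae Radix, and 295 and 279 CPM at high and 341 and 349 CPM at low dose of Aucklandiae Radix. PCNA fell by 0.69 with Polygalae Radix (adjusted p = 3.4e-14) and by 0.27 with Aucklandiae Radix (adjusted p = 7.2e-05). The loader subunits RFC2 to RFC5 fell by 0.79 to 1.05 with Aucklandiae Radix, while with Polygalae Radix RFC3 rose by 0.45 and RFC2 fell by 0.21 and RFC5 by 0.27. With the GC and length trend removed RFC2 was −0.04 and RFC5 −0.08, and neither was called. RFC2 was also not called in a fit of the 2 groups alone, and it was −0.16 without low replicate 3. All 8 genes of the polymerases and lagging strand fell with Aucklandiae Radix (median −1.32), led by PRIM1, the catalytic primase (−1.84), POLD1, the catalytic subunit of polymerase delta (−1.78), and LIG1, the ligase that seals Okazaki fragments (−1.75). With Polygalae Radix POLA1, the catalytic subunit of polymerase alpha, fell by 1.40 and LIG1 by 1.19, whereas POLE, the catalytic subunit of polymerase epsilon, rose by 0.30. POLE2, its second subunit, had 12.7 and 14.9 CPM at high and 10.9 and 12.4 CPM at low dose of Polygalae Radix (0.21, adjusted p = 0.071), and 5.60 and 6.26 CPM at high and 14.1 and 12.9 CPM at low dose of Aucklandiae Radix (−1.19, adjusted p = 3e-12). FEN1, the flap endonuclease, had a log2 fold change of 0.04 with Polygalae Radix (adjusted p = 0.5) and fell by 0.95 with Aucklandiae Radix. With Guibi-tang 5 of the 8 fell, the most for LIG1 (−0.50) and POLA1 (−0.45).

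In nucleotide supply the subunits of 1 enzyme parted. RRM1 and RRM2 encode the large and small subunits of ribonucleotide reductase, which makes deoxynucleotides. RRM1 (chr11:4094707-4138876) had 34.7 and 39.0 CPM at high and 125 and 127 CPM at low dose of Polygalae Radix, the deepest fall of any of the 44 genes with that extract (−1.78 ± 0.05, SE, adjusted p = 3.4e-31). RRM2 had 309 and 342 CPM at high and 292 and 297 CPM at low dose of the same extract, a rise of 0.14 (adjusted p = 0.0053). It was 0.06 without high replicate 3 and 0.12 without low replicate 2, and in neither case called, nor was it called without the filter on low counts or in a fit of the 2 groups alone. With Aucklandiae Radix both subunits fell, RRM1 to 63.6 and 63.6 CPM, against 129 and 121 CPM at low dose (−0.98), and RRM2 to 129 and 131 CPM, against 310 and 305 CPM (−1.25). With Guibi-tang both fell as well (−0.29 and −0.23), and with Menthae Herba both rose (0.13 and 0.23). TYMS, thymidylate synthase, had 115 and 123 CPM at high and 174 and 193 CPM at low dose of Polygalae Radix, and 62.6 and 69.2 CPM at high and 175 and 174 CPM at low dose of Aucklandiae Radix. With Guibi-tang TYMS had 126, 113 and 134 CPM at high and 181, 186 and 191 CPM at low dose, the deepest fall of the 44 there (−0.58, adjusted p = 2.7e-14). TK1, thymidine kinase of the salvage route, had 57.7, 49.7 and 58.5 CPM at high and 85.7, 78.2 and 81.1 CPM at low dose of Guibi-tang (−0.57), and it fell by 0.96 with Polygalae Radix and by 0.86 with Aucklandiae Radix.

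Among the chromatin genes UHRF1 had the deepest fall. UHRF1 (chr19:4903080-4962154), which brings DNMT1 to newly copied DNA, had 25.7 and 31.0 CPM at high and 178 and 178 CPM at low dose of Aucklandiae Radix, a fall of 2.66 ± 0.06 (SE, adjusted p = 2.5e-35). It had 138 and 135 CPM at high and 174 and 170 CPM at low dose of Polygalae Radix (−0.35), and 162, 168 and 157 CPM at high and 193, 185 and 189 CPM at low dose of Guibi-tang (−0.22). DNMT1, the maintenance DNA methyltransferase, fell by 0.88 with Polygalae Radix, by 1.26 with Aucklandiae Radix and by 0.37 with Guibi-tang. CHAF1A, the large subunit of the histone chaperone CAF-1, rose by 0.59 with Polygalae Radix and fell by 1.15 with Aucklandiae Radix, while its partner CHAF1B had 0.02 with Polygalae Radix (adjusted p = 0.85) and fell by 0.62 with Aucklandiae Radix.

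The cyclin E and E2F genes all rose with Polygalae Radix, 5 of 5 with a median of 0.53, and separated with Aucklandiae Radix, where both cyclins rose and the 3 E2F genes fell. CCNE1 (chr19:29811898-29824308), encoding cyclin E1, had 76.4 and 69.4 CPM at high and 35.5 and 35.6 CPM at low dose of Aucklandiae Radix, a rise of 1.03 ± 0.06 (SE, adjusted p = 6.5e-20). It had 51.5 and 50.9 CPM at high and 41.6 and 40.7 CPM at low dose of Polygalae Radix (0.31), and 41.0, 41.2 and 39.8 CPM at high and 36.2, 34.3 and 35.7 CPM at low dose of Guibi-tang (0.19, adjusted p = 0.0023). CCNE1 rose with all 3 extracts. CCNE2 with Guibi-tang was 0.35 (adjusted p = 0.071), and it was called there without the filter (0.34), with a replicate block within set (0.35), with the GC and length trend removed (0.34) and without high replicate 2 (0.44). CCNE2, encoding cyclin E2, had the lowest median CPM of the 44 over all libraries, at 12.1 and 14.1 CPM at high and 4.22 and 5.53 CPM at low dose of Polygalae Radix (1.38 ± 0.16, SE, adjusted p = 4.1e-10). It had 8.36 and 7.46 CPM at high and 5.30 and 5.63 CPM at low dose of Aucklandiae Radix (0.53, adjusted p = 0.0065), a call lost without high replicate 2 (0.45) or low replicate 2 (0.47). E2F1, an activator, had 110 and 87.7 CPM at high and 64.6 and 71.2 CPM at low dose of Polygalae Radix (0.53), and 47.2 and 57.6 CPM at high and 69.2 and 68.7 CPM at low dose of Aucklandiae Radix (−0.40). E2F2, another activator, rose by 0.62 with Polygalae Radix and fell by 1.15 with Aucklandiae Radix. E2F8, an atypical E2F that represses transcription, had 31.8 and 34.7 CPM at high and 23.8 and 24.6 CPM at low dose of Polygalae Radix (0.45). With Aucklandiae Radix E2F8 had 2.84 and 3.11 CPM at high and 21.9 and 22.4 CPM at low dose, the deepest fall of all (−2.90 ± 0.11, SE, adjusted p = 4.3e-27).

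All 25 genes that fell with Polygalae Radix (100%) also fell with Aucklandiae Radix, where they were 61% of the 41 fallers. With 41 of the 44 genes falling there, most of any subset would overlap, and agreement between the extracts was not tested. Another 10 genes rose with Polygalae Radix and fell with Aucklandiae Radix: CDT1, MCM10, GINS3, RFC3, POLE, RRM2, CHAF1A, E2F1, E2F2 and E2F8. For CDT1 and RRM2 the rise, and for GINS3 the fall, was lost under the alternatives named above. In the test of the difference itself, the change with Aucklandiae Radix minus that with Polygalae Radix was called for 40 of 44 genes, 34 negative and 6 positive, beside 60.1% of all genes. The widest differences were E2F8 (−3.35 ± 0.13, SE), UHRF1 (−2.31 ± 0.08) and E2F2 (−1.78 ± 0.11). Positive differences, a shallower fall or a larger rise with Aucklandiae Radix, belonged to RRM1 (0.80), CCNE1 (0.72), GINS4 (0.43), MCM5 (0.42), PCNA (0.42) and MCM6 (0.29). MCM2 had no called difference. The top concentrations, 280 and 250 µg/mL, differ, and each is 25 times its own low dose. Guibi-tang minus Saengmaek-san gave 20 called differences, 19 of them negative (19.6% of all genes), and Menthae Herba minus Saposhnikoviae Radix gave 5, 2 of them positive (10.6%). That last count was 1 without Saposhnikoviae Radix low replicate 3, 2 without Menthae Herba high replicate 1 or 3, and 3 without Menthae Herba low replicate 1 or 2 or Saposhnikoviae Radix low replicate 2.

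**Figure D3:**
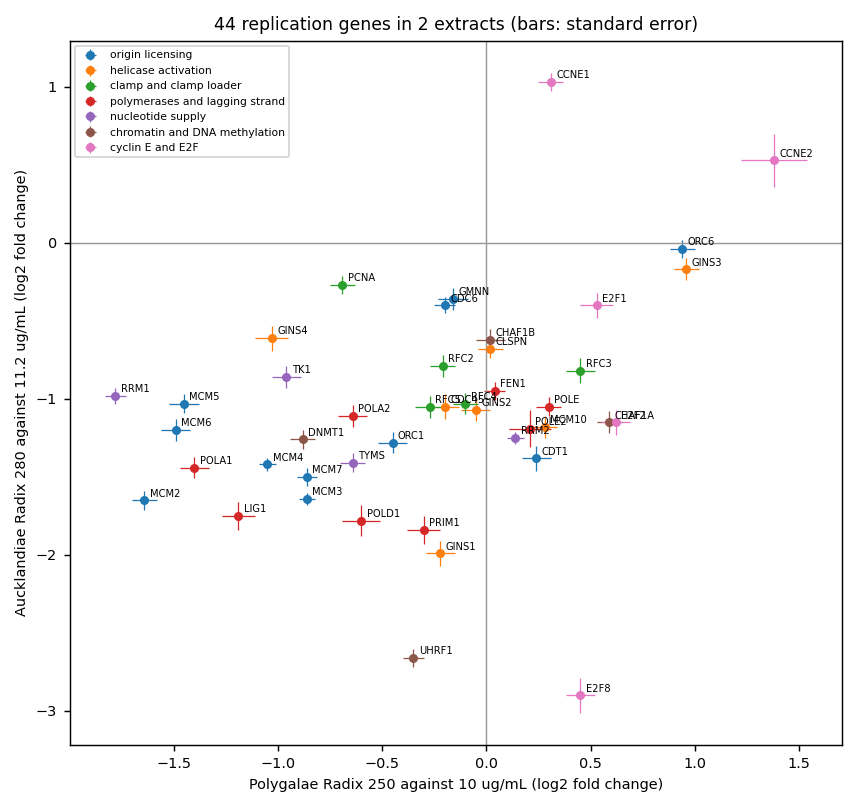
Log2 fold change of high against low dose with Aucklandiae Radix (vertical axis) and Polygalae Radix (horizontal axis) for the 44 genes, coloured by role, with bars of 1 standard error. CCNE1 and CCNE2 lie in the upper right, E2F8 (0.45, −2.90) lies lowest, and MCM2 to MCM7 lie in the lower left.

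With Guibi-tang the 23 fallers were all among the 41 that fell with Aucklandiae Radix (56.1% of those) and 18 were among the 25 that fell with Polygalae Radix (78.3% of the 23 and 72% of the 25). Here too, most of any subset of the 44 would be among those 41. With Menthae Herba the rises were CDC45 (26.3, 28.2 and 26.7 CPM at high, 24.9, 21.0 and 23.1 CPM at low dose, 0.23, adjusted p = 0.0011), RRM2 (348, 360 and 371 CPM at high, 297, 310 and 311 CPM at low dose, 0.23, adjusted p = 1.6e-06), E2F1 (78.3, 76.5 and 79.1 CPM at high, 69.4, 67.1 and 68.5 CPM at low dose, 0.19), POLA2 (0.16) and RRM1 (0.13). The doses did not overlap in any of these 3 genes with printed libraries. Over the 44 genes 16 stood higher and 7 lower without overlap, more than were called. The same count with Saposhnikoviae Radix was 18 higher and 1 lower, where 0 of 44 were called by edgeR. The share over all genes was not counted, so neither count is read as a result about these genes. The E2F1 call was lost without high replicate 1 or 3 or without low replicate 2 or 3. POLA2 was lost without high replicate 3, low replicate 2 or 3 or the filter on low counts, and in a fit of the 2 groups alone. The falls were E2F8 (20.3, 21.9 and 20.6 CPM at high, 25.7, 24.0 and 24.1 CPM at low dose, −0.24) and MCM3 (326, 345 and 338 CPM at high, 361, 365 and 362 CPM at low dose, −0.11). The MCM3 call was lost without high replicate 1 (−0.08) and without the filter on low counts (−0.1). The single call with Soyo-san was E2F2, at 18.4 and 20.2 CPM at high and 23.0 and 22.9 CPM at low dose (−0.25, adjusted p = 0.045), and it was lost without any 1 of its 4 libraries.

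Few of the genes moved at medium dose. At medium against low dose Polygalae Radix had 6 genes called, 3 up and 3 down, beside 8.41% of all genes. RRM1 fell to 94.9 and 107 CPM at 50 µg/mL, against 125 and 127 CPM at 10 µg/mL (−0.32, adjusted p = 8.4e-06), followed by POLA1 (−0.32) and MCM6 (−0.26). CDT1 (0.39), E2F2 (0.32) and CHAF1A (0.32) rose. The CDT1 libraries at medium dose, 119 and 96.7 CPM, were as high as those at high dose. Without Polygalae Radix medium replicate 3 the count was 10, a fit of the 2 groups alone called 0, and removal of the GC and length trend gave 5 up and 8 down. Aucklandiae Radix had 2 falls, MCM7 (−0.20) and TYMS (−0.18), beside 4.35%, a count of 0 or 1 without any of its 4 libraries. Guibi-tang had 2 rises, ORC1 (0.23) and CDC6 (0.15), beside 3.60%, a count of 1 without medium replicate 1 or 2 or any 1 low-dose library. By edgeR 0 of 44 genes were called at medium dose with Menthae Herba (0.118% of all genes, 3 of 44 at an unadjusted p under 0.05), Saposhnikoviae Radix (0.0118%, 7 of 44), Saengmaek-san (0%, 1 of 44) and Soyo-san (0.00589%, 0 of 44), and by DESeq2 0 in each of these as well.

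Against vehicle the high doses of the same 3 extracts again had the most genes called. Polygalae Radix had 37 of 44 genes called (15 higher and 22 lower, beside 66.9% of all genes) and Aucklandiae Radix 42 (3 higher and 39 lower, 73.3%). Guibi-tang had 31 (6 higher and 25 lower, 51.0%). With Polygalae Radix the log2 fold change against vehicle was −1.87 for MCM2, −1.71 for RRM1, −0.58 for UHRF1, 0.51 for CCNE1 and 1.81 for CCNE2. With Aucklandiae Radix it was −1.85 for MCM2, −0.92 for RRM1, −2.84 for UHRF1, 1.02 for CCNE1 and 1.09 for CCNE2. With Guibi-tang it was −0.57 for MCM2, −0.19 for RRM1, −0.32 for UHRF1, 0.18 for CCNE1 and 0.65 for CCNE2. Both cyclin E genes were thus called higher than vehicle in all 3. For CCNE2 this was not particular to these extracts, as it was called higher at 6 of 7 high doses (0.35 to 1.81). CCNE1 was called higher at 3 of 7. At low dose CCNE2 was called higher than vehicle in 4 of 7 (0.30 to 0.56). With the GC and length trend removed it was called there in 0 of 7 by edgeR (0.04 to 0.33). PCNA with Aucklandiae Radix was at −0.06 (adjusted p = 0.33) and CDT1 with Polygalae Radix at −0.12 (adjusted p = 0.11). Menthae Herba had 24 genes called (14 higher and 10 lower, 48.2% of all genes), Saposhnikoviae Radix 28 (21 and 7, 40.1%), Saengmaek-san 24 (15 and 9, 40.5%) and Soyo-san 24 (12 and 12, 38.8%). Removal of the GC and length trend changed the splits to 17 higher and 2 lower with Menthae Herba, 22 and 1 with Saposhnikoviae Radix and 17 and 2 with Saengmaek-san. These comparisons all share the 3 vehicle libraries. Okbyeongpung-san had 0 of 44 past 2-fold against vehicle (3.66% of all genes), from −0.38 for E2F2 to 0.51 for CCNE2.

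At the low doses 19 to 25 of the 44 genes differed from vehicle, by small amounts. Polygalae Radix had 22 genes called (11 higher and 11 lower, beside 36.1% of all genes), Aucklandiae Radix 23 (12 and 11, 33.3%), Menthae Herba 25 (15 and 10, 38.0%), Saposhnikoviae Radix 22 (13 and 9, 37.6%), Saengmaek-san 21 (14 and 7, 38.7%), Guibi-tang 24 (12 and 12, 40.1%) and Soyo-san 19 (12 and 7, 34.2%). The 7 comparisons share 1 vehicle group, so they are not independent. The Aucklandiae Radix count was 15 without low replicate 2 or low replicate 3. The following genes were singled out after their values were seen. CDT1 was lower than vehicle at all 7 low doses, with log2 fold changes of −0.45 to −0.35, as were CHAF1A (−0.43 to −0.28), MCM5 (−0.35 to −0.25) and DNMT1 (−0.26 to −0.21). ORC6 was higher at all 7 (0.29 to 0.34), as were GMNN (0.24 to 0.33), RFC3 (0.29 to 0.39) and PCNA (0.20 to 0.25). MCM2 was also called lower at all 7, and MCM6, RFC4, RFC5 and TYMS higher. CDT1 had a low-dose range of 73.6 to 84.4 CPM (median 80.2, 19 libraries), against 100 to 114 CPM in the 3 vehicle libraries, and ORC6 had 55.5 to 61.4 CPM (median 56.9), against 46.0 to 46.9 CPM.

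These low-dose differences moved with the base composition of the transcripts. Over the 44 genes, whose longest transcripts have 36.9% to 65% GC (median 48.9%), Spearman's rho between GC content and the log2 fold change of low dose against vehicle lay between −0.77 and −0.71 in the 7 comparisons. For high against low dose it lay between −0.42 and −0.11. After a GC and length trend was removed from each library, 10 to 17 genes were called at low dose against vehicle, with splits of 7 higher and 5 lower for Polygalae Radix, 6 and 4 for Aucklandiae Radix, 10 and 4 for Menthae Herba, 9 and 3 for Saposhnikoviae Radix, 7 and 5 for Saengmaek-san, 10 and 4 for Guibi-tang and 15 and 2 for Soyo-san. The share of all genes called with the trend removed is not given here, so these counts and splits have no background beside them. ORC6 was called higher in all 7 (0.20 to 0.28), CDT1 lower in 6 of 7 and CHAF1A in 5 of 7. RFC3 was called higher in 5 of 7, GMNN and PCNA in 2 of 7 each and MCM5 lower in 3 of 7, while DNMT1 was called in 0 of 7 by edgeR. MCM2 and MCM6 were also called in 0 of 7 by edgeR, RFC5 higher in 1, RFC4 in 2 and TYMS in 6. Of genes not singled out above, E2F1 (0.13 to 0.16) and FEN1 (0.13 to 0.19) were called higher in 7 of 7. MCM7 was called higher in 6 and GINS3 lower in 6. The part of composition, set and treatment in these differences was not tested.

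**Figure D4:**
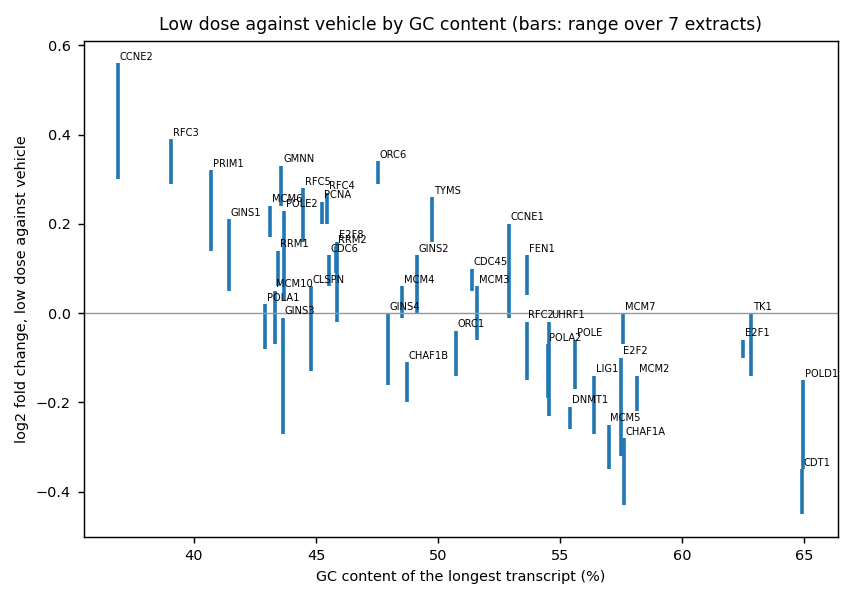
Range over 7 extracts of the log2 fold change of low dose against vehicle (vertical bars) for the 44 genes, placed by the GC content of the longest transcript (percent). CCNE2 and RFC3, at the low end of GC, lie above 0 and CDT1, at 65% GC, lies between −0.45 and −0.35.

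Further genes of the pathway were described as a list of 50 that are not among the 44. At high against low dose 22 fell and 18 rose with Polygalae Radix, 38 fell and 9 rose with Aucklandiae Radix, 8 fell and 5 rose with Menthae Herba, and 22 fell and 2 rose with Guibi-tang. With Polygalae Radix RNASEH2A, of ribonuclease H2 (−1.35), and ORC3 (−1.33) were among the lowest, and the highest were E2F3 (1.06), CDC25A, the phosphatase that activates CDK2 (0.76), and DSCC1, of an alternative clamp loader (0.68). With Aucklandiae Radix the lowest were SKP2, which targets the inhibitor p27 for destruction (−2.20), HELLS, a chromatin remodeller (−1.79), and CCNA2, cyclin A2 (−1.66). The highest were CCND3, cyclin D3 (0.84), the histone chaperone ASF1A (0.55) and MCM9 (0.47). With Guibi-tang the lowest were ASF1B (−0.79), TICRR (−0.47) and CDK2 (−0.43), and ASF1A (0.32) and EXO1 (0.16) rose. With Menthae Herba ASF1A (0.37), ORC5 (0.28) and EXO1 (0.26) were the highest and TICRR (−0.34), ASF1B (−0.29) and CCND1 (−0.28) the lowest.

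Brakes on S-phase entry moved in both directions. Of 10 listed, 9 were tested. CDKN1A, which encodes the kinase inhibitor p21, rose by 2.16 with Aucklandiae Radix (adjusted p = 7.3e-24), by 0.61 with Guibi-tang and by 0.30 with Menthae Herba, and had 0.12 with Polygalae Radix (adjusted p = 0.3). CCNG2, cyclin G2, rose by 1.60 with Aucklandiae Radix and fell by 0.57 with Polygalae Radix and by 0.63 with Guibi-tang. CDKN1B, encoding p27, rose by 0.40 with Polygalae Radix and fell by 0.28 with Aucklandiae Radix and by 0.31 with Guibi-tang. RB1 fell by 0.67 with Polygalae Radix and by 0.26 with Aucklandiae Radix, and E2F5, a repressor partner of the RB family, fell by 1.65 with Aucklandiae Radix. Genes of mitosis, set beside these, fell too. Of 8, 7 fell with Polygalae Radix (median −0.93, CDK1 rose by 0.21), 8 with Aucklandiae Radix (−1.08), 8 with Guibi-tang (−0.65) and 7 with Menthae Herba (−0.30), TOP2A the most with Polygalae Radix (−2.04). With Menthae Herba 7 of 8 mitosis genes fell, beside 2 of the 44 replication genes.

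Exons of 9 of the 44 genes overlap those of another gene with at least 20% of their count. For CHAF1B (MORC3), PRIM1 (NACA) and FEN1 (FADS2) that gene lies on the same strand, where strand cannot separate the reads. For CCNE2 (INTS8), CHAF1A (UBXN6), GINS2 (GSE1), RFC4 (EIF4A2), RFC5 (WSB2), TYMS (ENOSF1) and again FEN1 (TMEM258) it lies on the opposite strand. The library kit keeps strand, but whether counting used it is not given in the sources used here. At high against low dose of Aucklandiae Radix the log2 ratio of the neighbour's means was −1.52 for FADS2, −0.38 for TMEM258, −0.36 for NACA, −0.34 for ENOSF1, −0.16 for GSE1 and −0.03 for EIF4A2, each in the direction of its member. It was 2.22 for WSB2, 1.00 for MORC3, 0.36 for UBXN6 and −0.28 for INTS8, each against its member. With Polygalae Radix it was −2.22 for FADS2, −0.47 for TMEM258, −0.25 for INTS8, −0.17 for UBXN6 and −0.07 for NACA, and 0.82 for EIF4A2, 0.66 for GSE1, 0.65 for MORC3, 0.42 for WSB2 and 0.24 for ENOSF1. With Guibi-tang the ratios ran from −1.09 for FADS2 to 0.72 for WSB2. The part of shared reads in these 9 genes was not tested.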

How the data were processed

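RNA sequencing measured 60 HepG2 libraries, prepared with a directional kit and read as 100 bp pairs, per the labels' protocols. The authors deposited RSEM expected counts per gene. The submitters' processing notes name FastQC 0.11.9, Trim Galore 0.6.5, STAR 2.7.3a, RSEM 1.3.3 and GRCh38. Which annotation release and strand setting were used is unstated there.

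Of the deposited expected counts 10.0% were not whole, and all were rounded. Genes were filtered with filterByExpr (minimum count 10), scaled with TMM and fitted with edgeR 4.0.16 (R 4.3.3) over 57 libraries in 22 groups, with Benjamini-Hochberg adjustment over 16982 genes and a threshold of 0.05. Okbyeongpung-san had 1 library per dose and entered no test. Alternatives were DESeq2 1.42.0, RLE scaling, other filters, replicate blocks, removal of a GC and length trend, fits of the compared groups alone and leaving out each library. The procedure was tested on simulated data.

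The members and lists were chosen with earlier results of these data known. Values per library are given for a fixed panel across the roles and for the highest and lowest called members of each extract, and other pathway genes are named by the 3 highest and 3 lowest called, of which 1 is not reported here. CPM in the text were computed from the deposited counts.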

Additional observations from a re-analysis of the deposited data

Results flagged for a closer look

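Changes at high against low dose were compared between extracts of the same set, by a contrast of the difference itself in edgeR with Benjamini-Hochberg adjustment. The count was 40 of 44 for Aucklandiae Radix minus Polygalae Radix (60.1% of all genes) and 20 for Guibi-tang minus Saengmaek-san (19.6%). It was 5 for Menthae Herba minus Saposhnikoviae Radix, close to the share over all genes (10.6%). Values below are differences between 2 log2 fold changes, the first extract minus the second. No group held 4 or more libraries, so no test for a single distant value was run within groups.

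For Aucklandiae Radix minus Polygalae Radix the 40 differences are given by role. Among the licensing genes the differences were MCM6 (0.29), ORC1 (−0.83), ORC6 (−0.98), CDC6 (−0.20), MCM5 (0.42), MCM4 (−0.37), MCM3 (−0.78), MCM7 (−0.64) and CDT1 (−1.62). For helicase activation the differences were MCM10 (−1.46), CLSPN (−0.70), CDC45 (−0.85), GINS1 (−1.77), GINS2 (−1.02), GINS4 (0.43) and GINS3 (−1.13). For the clamp and its loader the differences were RFC2 (−0.58), RFC5 (−0.79), PCNA (0.42), RFC3 (−1.27) and RFC4 (−0.94). Among polymerases and lagging strand genes the differences were POLA2 (−0.47), POLD1 (−1.18), POLE2 (−1.40), LIG1 (−0.56), FEN1 (−0.99), POLE (−1.35) and PRIM1 (−1.55). In nucleotide supply the differences were RRM1 (0.80), RRM2 (−1.38) and TYMS (−0.77). Among the chromatin genes the differences were DNMT1 (−0.39), CHAF1B (−0.64), CHAF1A (−1.74) and UHRF1 (−2.31). Cyclin E and E2F genes had differences of E2F2 (−1.78), E2F1 (−0.93), CCNE1 (0.72), E2F8 (−3.35) and CCNE2 (−0.85).

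For Menthae Herba minus Saposhnikoviae Radix the differences were E2F1 (0.29), MCM4 (−0.15), MCM3 (−0.16), E2F8 (−0.28) and RRM2 (0.17).

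For Guibi-tang minus Saengmaek-san the differences among genes of licensing, helicase activation and the clamp were MCM2 (−0.33), MCM5 (−0.35), MCM4 (−0.18), RFC5 (−0.22), MCM3 (−0.28), GINS2 (−0.31), PCNA (−0.23), RFC4 (−0.21) and MCM7 (−0.55). Among the other roles they were POLD1 (−0.34), POLA1 (−0.48), CCNE1 (0.21), LIG1 (−0.54), E2F8 (−0.28), DNMT1 (−0.35), RRM1 (−0.35), TK1 (−0.50), RRM2 (−0.26), TYMS (−0.55) and UHRF1 (−0.23).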

How the results depend on the processing

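None of the 44 genes' called changes at high against low dose reversed under the alternatives listed here. DESeq2 called 10 genes at medium dose of Polygalae Radix and 4 of Guibi-tang, and at high dose 1 with Saposhnikoviae Radix and 0 with Soyo-san. RLE scaling called 1 at medium dose of Aucklandiae Radix. Without the filter on low counts the medium-dose counts were 1 for Aucklandiae Radix and 1 for Guibi-tang, Soyo-san had 0, and Menthae Herba minus Saposhnikoviae Radix had 1. A filter at a mean of 1 CPM gave 2 for Soyo-san. Fits of the compared groups alone called 0, 4 and 1 at medium dose of Polygalae Radix, Aucklandiae Radix and Menthae Herba.

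With the GC and length trend removed, Menthae Herba had 13 and Saposhnikoviae Radix 1, Soyo-san 2, at high against low dose. Medium-dose counts were 13 for Polygalae Radix and 8 for Guibi-tang. Against vehicle, low-dose counts were 12 for Polygalae Radix, 10 for Aucklandiae Radix, 14 for Menthae Herba, 12 for Saposhnikoviae Radix, 12 for Saengmaek-san and 14 for Guibi-tang, and high-dose Soyo-san had 14. In this setting E2F1 at high dose of Guibi-tang against vehicle was 0.22, where it was −0.05 before. The cause was not tested.

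Correlations of deviations exceeded 0.1 in 8 of 30 same-numbered pairs within the Polygalae Radix and Aucklandiae Radix set, against 2 of 30 others. Within Soyo-san the counts were 2 of 6 against 0 of 6. In groups of 2 libraries the deviations mirror each other, so these counts are not independent. The counts were 13 of 45 against 6 of 90 within the Guibi-tang and Saengmaek-san set. They were 8 of 45 against 16 of 90 within the Menthae Herba and Saposhnikoviae Radix set. Between sets they were 53 of 342 against 123 of 702. Same-numbered pairs did not exceed 0.1 throughout, so the replicate block is an alternative only. The replicate block, and the replicate block within set, each called 2 genes with Soyo-san. With the replicate block and the GC and length trend removed together, Saposhnikoviae Radix had 13 at low dose and Soyo-san 15 at high dose against vehicle. GINS2 was 0.13 there at high dose of Polygalae Radix against vehicle, where it was −0.03 before, and E2F1 with Guibi-tang was 0.22.

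Leaving out 1 library at a time gave, for high against low dose, 35 to 38 genes for Polygalae Radix, 41 to 43 for Aucklandiae Radix, 5 to 8 for Menthae Herba, 21 to 23 for Guibi-tang and 0 for Soyo-san. At medium dose it gave 4 to 10 for Polygalae Radix, 0 to 1 for Aucklandiae Radix and 1 to 2 for Guibi-tang. The differences gave 38 to 41 for Aucklandiae Radix minus Polygalae Radix, 1 to 5 for Menthae Herba minus Saposhnikoviae Radix and 16 to 19 for Guibi-tang minus Saengmaek-san. Low dose against vehicle gave 15 to 25 for Polygalae Radix, 15 to 24 for Aucklandiae Radix, 20 to 25 for Menthae Herba, 15 to 26 for Saposhnikoviae Radix, 18 to 29 for Guibi-tang, 15 to 24 for Saengmaek-san and 15 to 24 for Soyo-san. High dose against vehicle gave 33 to 36 for Polygalae Radix, 42 for Aucklandiae Radix, 23 to 27 for Menthae Herba, 22 to 31 for Saposhnikoviae Radix, 31 to 32 for Guibi-tang, 20 to 24 for Saengmaek-san and 17 to 25 for Soyo-san. Depth limits CCNE2 most, the member with the lowest counts.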
